A study of Mus musculus with 20 samples.

Results

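Cirbp and Rbm3, whose products are the best known cold-inducible RNA-binding proteins of mammals, and 8 heat shock genes (Hspa1a, Hspa1b, Hspa8, Hsph1, Dnajb1, Hsp90aa1, Hspb1 and Hspe1) were followed in the livers of mice that had been chilled repeatedly, with and without the deacetylase Sirt2. The 10 genes were found by their symbols among the 45306 genes of the table, each with 1 entry, and all 10 were among the 15616 genes that passed the filter on low counts. The livers came from 20 C57BL/6 mice that were 5 weeks old at the start, in 4 groups of 5, with 1 library per mouse. Control mice were wild type and stayed at room temperature, and CE (cold exposure) mice were wild type and spent 3 h per day at 4 °C for 3 weeks. Sirt2-/- mice carried a Sirt2 knockout and stayed at room temperature, and Sirt2-/-/CE mice carried it and received the same cold exposure. The knockout was made by CRISPR-Cas9 editing in the whole animal and not in hepatocytes alone. The hour of death and the time that passed between the last cold period and tissue collection are not given in the sources used here. Mice are numbered 1 to 5 in the Control group, 6 to 10 in CE, 11 to 15 in Sirt2-/- and 16 to 20 in Sirt2-/-/CE.

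The members of the set answer to temperature in opposite directions in cultured cells. Cirbp and Rbm3 messages accumulate under mild cooling and decline under warming, and their proteins bind messenger RNAs and alter their stability, splicing and translation. Heat shock genes are induced by heat and by unfolded protein through the transcription factor Hsf1, which binds inverted repeats of GAA known as heat shock elements, and their products fold, refold or hold other proteins. In mouse liver both groups also follow the daily rhythm of body temperature, Cirbp in antiphase to the heat shock genes.

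The elements that tie such genes to temperature are shown here because the 8 chaperones varied together over the mice. RefSeq promoters on GRCm38.p6 were present for 7 of the 10 genes, and Rbm3, Hspa8 and Hsp90aa1 are named only. The 250 bases before each start were searched on both strands for the heat shock element GAANNTTC or TTCNNGAA, which 12.8% of all promoters hold. It was found in 5 of the 6 chaperones with a promoter entry, beside 14.55% of all genes with an entry. For Dnajb1 these letters were not in the window. Capitals mark the matches.
Hspa1a (chr17:34972213-34972300, reverse strand) and Hspa1b (chr17:34959295-34959382, reverse strand), the same letters in both: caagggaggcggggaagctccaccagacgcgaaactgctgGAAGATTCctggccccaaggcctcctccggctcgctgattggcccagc
Hspb1 (chr5:135887762-135887869, forward strand): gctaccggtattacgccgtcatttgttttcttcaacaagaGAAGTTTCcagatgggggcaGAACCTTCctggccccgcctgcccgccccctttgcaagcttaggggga
Hsph1 (chr5:149636351-149636380, reverse strand): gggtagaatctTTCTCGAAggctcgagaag
Hspe1 (chr1:55088053-55088082, forward strand): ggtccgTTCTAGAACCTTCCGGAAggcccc

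In the Hspe1 window 3 matches overlap and form a run of alternating units, and a pattern of at least 3 alternating units occurs in 0.47% of all promoters. That window lies in a promoter shared head to head with Hspd1, the mitochondrial partner of Hspe1. The Hsph1 match ends 46 bases before the downstream one of 2 annotated starts and begins at position -33 from the upstream one. Its window overlaps an annotated exon of Hsph1. The single match in the near-identical Hspa1a and Hspa1b promoters ends 96 bases before the start. These latter promoters differ at 3 of 250 positions, C44T, T47C and T249G, counted from 1 at the 5′ end with the base of Hspa1a first. The letters TCCCCGCC or their complement GGCGGGGA, described as a mild-cold response element in Cirbp, were present in 4.64% of all promoters. Among the 10 genes they were found in Cirbp and also in Hspa1a and Hspa1b, beside 5.37% of all genes with a promoter entry. The Cirbp match lies at the far end of its window and is given in capitals.
Cirbp (chr10:80167589-80167639, forward strand): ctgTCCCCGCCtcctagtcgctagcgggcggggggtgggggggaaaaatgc
A match describes letters in a window and no binding was measured.

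The 10 genes lie at separate sites on GRCm38, apart from the Hspa1b and Hspa1a pair. Cirbp (ENSMUSG00000045193) is at chr10:80165985-80172786 on the forward strand and Rbm3 (ENSMUSG00000031167) at chrX:8138975-8145880 on the reverse strand. Hspa1b and Hspa1a stand side by side on the reverse strand at chr17:34956436-34959238 and chr17:34969190-34972156. Hspa8 is at chr9:40800984-40810087, Hsph1 at chr5:149614287-149636376, Dnajb1 at chr8:83608193-83612653, Hsp90aa1 at chr12:110690605-110702728, Hspb1 at chr5:135887919-135889563 and Hspe1 at chr1:55088132-55091307.

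Levels are given as read counts scaled to library size (CPM) after TMM normalization, unless the length-scaled unit FPKM is named. Total counts were 35499796 to 53917339 per mouse. Sirt2 itself was measured at 40.2 to 56.2 CPM in the 10 wild-type mice and at 16.9 to 27.5 CPM in the 10 mice labelled Sirt2-/-, with a log2 difference of -0.94 ± 0.15 (SE) between Sirt2-/- and Control (adjusted p = 0.0145 by edgeR's quasi-likelihood test). The targeted gene therefore followed the labels, and reads of Sirt2 remained in every knockout library. The summed FPKM of 5 hepatocyte markers lay between 40203 and 79038 in all mice, that of 3 skeletal muscle markers was at most 0.0639, and that of 3 adipocyte markers was at most 1.01, with 1 marker of each of these lists at 0 in all mice. The summed FPKM of the 3 of 4 Kupffer cell markers in the table ran from 31.7 to 111 in Control, 28.7 to 131 in CE, 79.6 to 138 in Sirt2-/- and 100 to 138 in Sirt2-/-/CE mice, and that of 4 endothelial markers from 13.4 to 67.2, 8.28 to 44.8, 28.1 to 69.5 and 49.5 to 74 in the same order. The summed FPKM of 4 pancreas markers was at most 1.84 in Control, 7.49 in CE, 8.1 in Sirt2-/- and 0.537 in Sirt2-/-/CE mice. No Kupffer cell, endothelial or pancreas marker of the table was at 0 in all mice, and their part in the results was not tested. In bulk liver, fewer cells of a type and less RNA per cell cannot be told apart.

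The 10 genes covered a wide range of levels per length of transcript. Hspa8, the constitutive cytosolic Hsp70, averaged 629 FPKM over the 20 mice. Hspe1, the small co-chaperonin of mitochondria, averaged 103 FPKM, and Hsp90aa1, the stress-inducible cytosolic Hsp90, averaged 82.2 FPKM. Below them stood Rbm3 at 26, Hsph1 at 22.7, Hspa1b at 16.7, Dnajb1 at 14, Hspb1 at 13.9, Cirbp at 6.45 and Hspa1a at 3.25 FPKM. From Hsph1 down to Hspb1 the ranges over mice overlapped widely, and Hspb1 ran from 1.62 to 36.5 FPKM. The spread between the lowest and the highest mouse was taken in CPM, from log2 values with a prior count. It was 37.6-fold for Hspa1a and 36.8-fold for Hspa1b, the inducible Hsp70 genes, against 3.43-fold for Hspe1 and 4.66-fold for Hspa8.

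**Figure D1:**
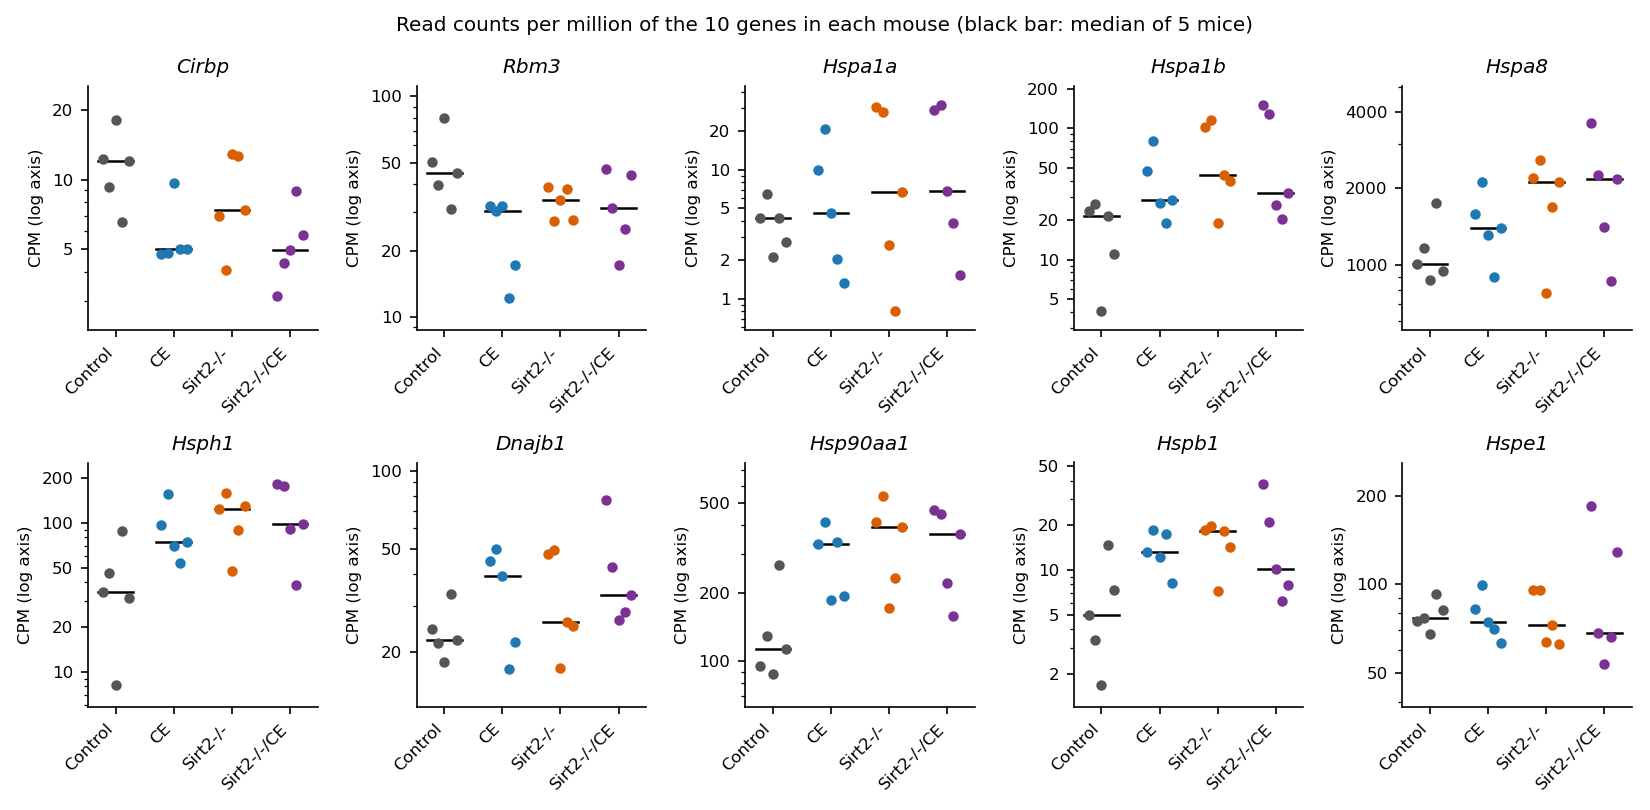
Level (CPM) of the 10 genes in each of the 20 mice, on log axes, with 1 point per mouse and a black bar at the median of each group of 5. Control mouse 3 has the highest Cirbp and Rbm3 and the lowest Hsph1, and for each gene the 4 groups overlap.

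The first comparison asked how repeated cold exposure changed these genes in wild-type liver. Both cold-inducible genes were lower in CE than in Control mice, Cirbp at 0.502 and Rbm3 at 0.504 of the Control level on the fitted scale, and 7 of the 10 genes, all of them chaperones, were higher. By edgeR no gene of the 10 passed the test over all genes, and limma voom called 4 of them. Cirbp was measured at 12.3, 9.34, 18.2, 6.55 and 12.1 CPM in Control mice 1 to 5 and at 4.76, 4.85, 9.67, 5.04 and 5.03 CPM in CE mice 6 to 10. CE mouse 8 stood above 2 of the Control mice, and the other CE mice lay below all of them. The fitted log2 fold change was -0.99 ± 0.34 (SE), with an unadjusted p of 0.0078 and an adjusted p of 0.279 in edgeR. It was 0 ± 0.35 in a fit with a score of clock genes as covariate that left out 4 mice of low score, which is described with the clock genes. With that covariate and no mouse left out it was close to -0.99, as it was without the covariate and those 4 mice. These fits were chosen after the data were seen.

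Rbm3, a small glycine-rich protein that supports translation in the cold, was measured at 50.3, 39.6, 79.7, 31 and 44.8 CPM in the Control mice and at 32, 30.2, 31.8, 12.2 and 17.3 CPM in the CE mice. All 5 CE mice stood below the Control mean of 49.1 CPM, and the groups overlapped only at Control mouse 4, which was lower than CE mice 6 and 8. Its log2 fold change was -0.99 ± 0.30, with an unadjusted p of 0.00343 and an adjusted p of 0.229, the lowest among the 10 genes in this comparison, and it was -0.19 ± 0.39 in the same clock fit of 16 mice. With the covariate and no mouse left out it stayed nearer to -0.99 than to -0.19. Reads of Rbm3 may be shared with 4 near-identical genes of the table, among them Phospho2 (97.4% identity over 380 bases), and Rbm3 held 36.7% to 80.4% of the counts of that family.

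Among the chaperones, Hsp90aa1 was measured at 95.8, 129, 88.2, 266 and 113 CPM in the Control mice and at 331, 415, 187, 336 and 195 CPM in the CE mice. Control mouse 4 stood above CE mice 8 and 10, and the other Control mice lay below all CE mice. Its log2 fold change was 1.08 ± 0.37 (unadjusted p = 0.00773, adjusted p = 0.279 in edgeR), and 0.27 ± 0.4 in the clock fit of 16 mice. With the clock covariate and no mouse left out it stayed close to 1.08. Hsph1, the Hsp110 nucleotide exchange factor of Hsp70, was measured at 34.2, 45.8, 8.17, 87.9 and 31.4 CPM in the Control mice and at 96.3, 156, 69.7, 54 and 73.8 CPM in the CE mice. Again Control mouse 4 alone reached into the CE range, and the log2 fold change was 1.12 ± 0.48 (adjusted p = 0.416 in edgeR). Over the alternative settings it ran from 0.44 to 1.59. Hspb1, a small heat shock protein that holds unfolding proteins and binds actin, was measured at 4.97, 3.4, 1.68, 14.7 and 7.3 CPM in the Control mice and at 13.2, 18.6, 12.2, 17.5 and 8.19 CPM in the CE mice. Its log2 fold change was 1.12 ± 0.51 (adjusted p = 0.438 in edgeR), and over the alternative settings it ran from 0.45 to 1.68.

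Hspa1b was measured at 23.5, 26.6, 4.05, 21.5 and 11 CPM in the Control mice and at 47.1, 79.7, 26.9, 19.1 and 28.5 CPM in the CE mice, with a log2 fold change of 1.21 ± 0.62 (unadjusted p = 0.0628). Hspa1a differed by 0.96 ± 0.89, Dnajb1, the J-domain cochaperone that delivers substrates to Hsp70, by 0.53 ± 0.34 and Hspa8 by 0.35 ± 0.34 on the log2 scale. Hspe1 differed by -0.02 ± 0.26, with a 95% interval from -0.56 to 0.52. Without CE mouse 7 the values were 0.8 for Hspa1b, 0.19 for Hspa1a, 0.35 for Dnajb1 and 0.17 for Hspa8, and Hspa8 was at 0.55 without Control mouse 4. In limma voom Hspa1a was at 0.31. Hspa1a and Hspa1b match over 2201 bases at 99.2% identity, so the split of reads between them is uncertain, and the counting rule for reads with several matches is not given. Their counts summed as 1 gene, an alternative chosen after the data were seen, gave 1.17 ± 0.63 for CE against Control.

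In all, 5 of the 10 genes had an unadjusted p under 0.05 in CE against Control, 3 higher (Hsph1, Hsp90aa1 and Hspb1) and 2 lower (Cirbp and Rbm3), where 10.7% of all genes tested did. With the adjustment, edgeR called 0 of the 10, DESeq2 called 0 and limma voom with sample quality weights called 4 (Cirbp, Rbm3, Hsp90aa1 and Hspb1). Of all genes tested, edgeR called 0.0064%, DESeq2 1.2% and limma voom 3.46%. The groups overlapped for all 10 genes, and 3.04% of all genes tested had no overlap. The median log2 fold change of the 10 genes was 0.75 and that of the 8 chaperones 1.02, beside -0.008 over all genes tested, and without CE mouse 7 these medians were 0.27 and 0.58. In the clock fit of 16 mice they were 0.34 and 0.42. In limma voom the median of the 10 was 0.46.

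**Figure D2:**
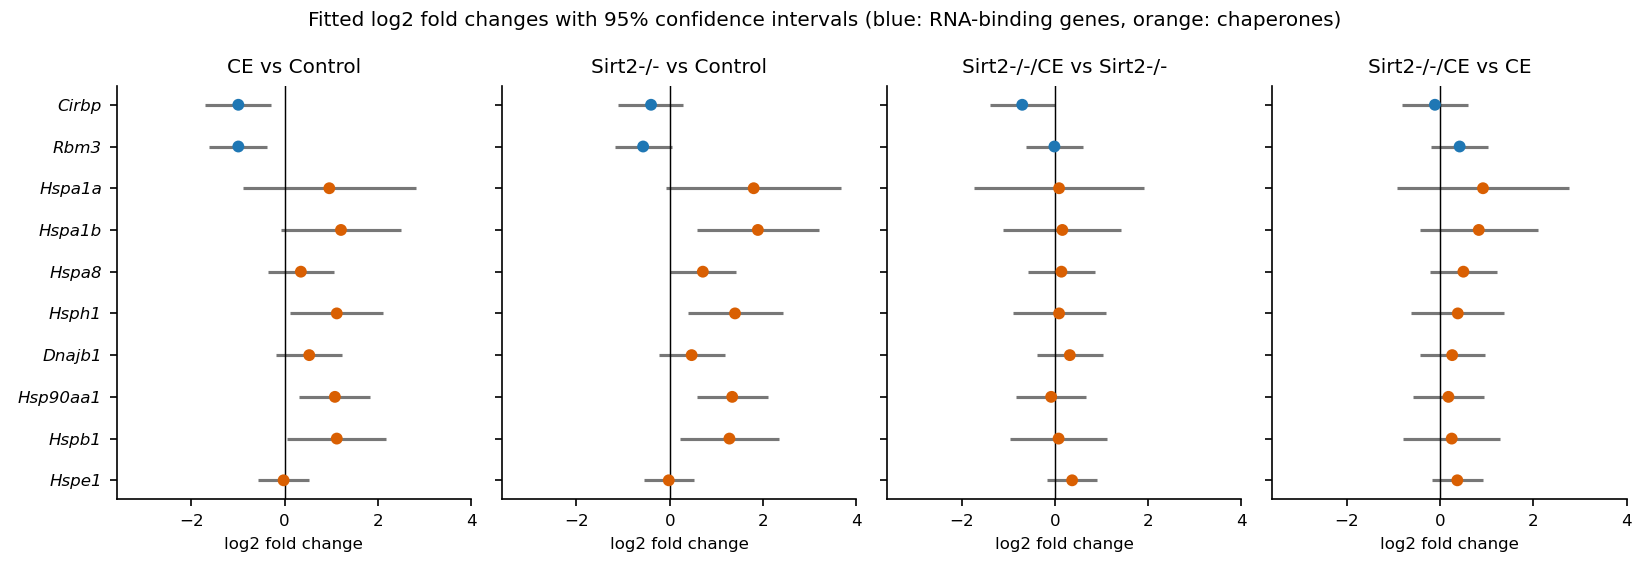
Fitted log2 fold changes of the 10 genes in 4 comparisons, with points at the estimate and lines over the 95% confidence interval. In CE against Control the intervals of Cirbp and Rbm3 lie below 0 and those of Hsph1, Hsp90aa1 and Hspb1 above it, before any adjustment over genes, and in Sirt2-/-/CE against Sirt2-/- the estimates of the chaperones lie between -0.08 and 0.37.

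The second comparison asked what the loss of Sirt2 did at room temperature. It used the same 5 Control mice as the first, so their values enter both. The 7 chaperones other than Hspe1 were again higher on average, by 0.47 to 1.89 on the log2 scale, and edgeR called none of the 10 genes. Hsp90aa1 came nearest, at 412, 542, 173, 234 and 394 CPM in Sirt2-/- mice 11 to 15 against a Control mean of 138 CPM. All 5 lay above that mean, and 2 of them, mice 13 and 14, lay below Control mouse 4. Its log2 fold change was 1.34 ± 0.37 (unadjusted p = 0.00158, adjusted p = 0.0769 in edgeR). The adjusted p of Hsp90aa1 was 0.0106 in DESeq2, 0.0398 with scaling by library size alone and 0.00519 in limma voom. Without Control mouse 4 it was 0.0294, and without Sirt2-/- mouse 13 it was 0.037.

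Hspa1b was measured at 103, 116, 19, 44.3 and 39.8 CPM in the Sirt2-/- mice, and its log2 fold change was 1.89 ± 0.63 (unadjusted p = 0.00685, adjusted p = 0.146). Sirt2-/- mouse 13 lay inside the Control range, and the other 4 lay above it. Hsph1 was measured at 124, 158, 47.4, 89 and 130 CPM, with a log2 fold change of 1.4 ± 0.49 (adjusted p = 0.165). Hspb1 was measured at 18.7, 19.7, 7.24, 18.4 and 14.2 CPM, with a log2 fold change of 1.28 ± 0.51 (adjusted p = 0.228). In each of these genes mouse 13 was the lowest of its group.

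Hspa1a separated the Sirt2-/- mice most. It was measured at 30.3 and 28 CPM in mice 11 and 12 and at 2.62, 0.799 and 6.67 CPM in mice 13 to 15, where the Control mice ran from 2.1 to 6.44 CPM. The SD of its log2 CPM was 2.22 in Sirt2-/- and 0.62 in Control mice, and the log2 fold change of 1.80 ± 0.90 had an adjusted p of 0.362. Hspa8 differed by 0.71 ± 0.34 and Dnajb1 by 0.47 ± 0.34, and Hspe1 by -0.02 ± 0.26. Over the alternative settings Hspa8 ran from 0.29 to 0.9. Dnajb1 was at 0.3 without mouse 11, at 0.28 without mouse 12 and at 0.71 in limma voom.

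The cold-inducible genes were lower in Sirt2-/- than in Control mice on average, by less than in CE mice. Cirbp was measured at 6.99, 4.08, 13, 12.7 and 7.41 CPM in the Sirt2-/- mice, with a log2 fold change of -0.40 ± 0.33 (unadjusted p = 0.241). Mice 13 and 14 lay within the Control range near its median of 12.1 CPM. Rbm3 was measured at 39, 27.4, 33.8, 37.9 and 27.6 CPM, with a log2 fold change of -0.57 ± 0.30 (unadjusted p = 0.0702). Without Control mouse 3 the values were -0.19 for Cirbp and -0.33 for Rbm3, and Cirbp was at -0.22 without Sirt2-/- mouse 12. In limma voom Cirbp was at -0.8 (adjusted p = 0.0881). In the clock fit of 16 mice Cirbp was at 0.02 and Rbm3 at -0.16. No direct test compared CE with Sirt2-/- mice.

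In Sirt2-/- against Control, 4 of the 10 genes had an unadjusted p under 0.05, all higher (Hspa1b, Hsph1, Hsp90aa1 and Hspb1), where 14.9% of all genes tested did. After adjustment edgeR called 0, DESeq2 called 1 (Hsp90aa1) and limma voom called 4 (the same 4 genes as at the unadjusted p). Of all genes tested, edgeR called 0.89%, DESeq2 3.89% and limma voom 5.8%. None of the 10 was free of overlap between the groups, as 3.61% of all genes tested were. The median log2 fold change was 0.99 for the 10 genes and 1.31 for the 8 chaperones, beside 0.017 over all genes, and 0.65 and 0.86 in the clock fit of 16 mice.

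The third comparison asked what cold exposure did in the absence of Sirt2. The chaperones of Sirt2-/-/CE mice differed little on average from those of Sirt2-/- mice, with a median log2 fold change of 0.12 over the 8, and Cirbp alone had an unadjusted p under 0.05. Cirbp was measured at 3.13, 4.35, 4.99, 8.91 and 5.8 CPM in mice 16 to 20, against a Sirt2-/- mean of 8.85 CPM, and its log2 fold change was -0.70 ± 0.34 (unadjusted p = 0.0492, adjusted p = 0.686 in edgeR). In limma voom it was -0.11 (adjusted p = 0.982). Mouse 19 was the 1 mouse above the Sirt2-/- mean. Rbm3 was measured at 47.1, 31.3, 17.3, 25.2 and 43.9 CPM, and its log2 fold change was -0.01 ± 0.30, with a 95% interval from -0.62 to 0.61, and it was -0.36 in limma voom.

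The Sirt2-/-/CE mice differed widely among themselves. Hsph1 was measured at 181, 175, 91.1, 38.2 and 98.2 CPM in mice 16 to 20, and Hspa1b at 150, 129, 25.9, 20.3 and 32.4 CPM. Mouse 16 was among the 3 highest of the 20 mice in 8 of the 8 chaperones and mouse 17 in 6 of them. Hspe1 was measured at 185 CPM in mouse 16 and 129 CPM in mouse 20, and at 53.9 to 68.6 CPM in the other 3. Hsp90aa1 was measured at 468, 448, 222, 159 and 366 CPM, a range that covers all but the highest Sirt2-/- mouse. In this comparison edgeR called 0 of the 10 genes and DESeq2 and limma voom also called 0. Of all genes tested edgeR and limma voom called 0% and DESeq2 0.0448%, 1 of the 10 had an unadjusted p under 0.05 beside 7.25% of all genes, and 0 were free of overlap beside 0.743% of all genes. The log2 fold changes of 9 of the 10 genes changed sign in at least 1 alternative setting, and the median of the 8 chaperones was -0.63 in limma voom and -0.19 without mouse 16.

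The fourth comparison set the genotypes against each other under cold exposure, Sirt2-/-/CE against CE. The median log2 fold change of the 10 genes was 0.37, and 9 of the 10 were higher in Sirt2-/-/CE mice, Cirbp being the exception. Hspa8 was measured at 1584, 2121, 1308, 897 and 1397 CPM in the CE mice and at 3616, 2251, 1408, 863 and 2177 CPM in the Sirt2-/-/CE mice, a log2 fold change of 0.50 ± 0.34 (unadjusted p = 0.159). Rbm3 differed by 0.42 ± 0.30 (unadjusted p = 0.176). Without mouse 16 the value was 0.19 for Hspa8 and 0.25 for Rbm3 and the median of the 10 was 0.09, and Rbm3 was at 0.24 without CE mouse 9. In limma voom Rbm3 was at 0.09 and Hspa8 at -0.06. No gene of the 10 was called by edgeR, DESeq2 or limma voom. Of all genes tested edgeR and limma voom called 0.0128% each and DESeq2 0.199%, 0 of the 10 had an unadjusted p under 0.05 beside 6.09% of all genes, and 0 were free of overlap beside 1.22%. In at least 1 alternative setting 8 of the 10 genes changed sign.

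Whether the cold response differed between the genotypes was tested as the interaction. Rbm3 had an interaction of 0.98 ± 0.42 on the log2 scale (unadjusted p = 0.0295, adjusted p = 0.535 in edgeR), since it differed by -0.99 with cold exposure in wild-type mice and by -0.01 in Sirt2-/- mice. Hsp90aa1 had an interaction of -1.16 ± 0.51 (unadjusted p = 0.0348, adjusted p = 0.56). In limma voom the interaction was 0.63 for Rbm3 and -2 for Hsp90aa1, and neither passed there. The median interaction of the 8 chaperones was -0.95, beside 0.002 over all genes. It was -1.68 in limma voom, -0.36 without CE mouse 7 and -0.59 without either Sirt2-/- mouse 11 or mouse 12. None of the 10 was called by edgeR, DESeq2 or limma voom, 0% of all genes were called by edgeR and by limma voom and 0.263% by DESeq2, and 2 of the 10 had an unadjusted p under 0.05 beside 8.34% of all genes tested.

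Over the 20 mice the chaperones varied together and Cirbp varied against them. Of the 28 pairs among the 8 chaperones, all 28 had a positive Pearson's r on log2 CPM, with a median of 0.73, and 24 had an adjusted p under 0.05 in a two-sided permutation test with 100000 resamples, adjusted over all 45 pairs. The pair with the highest r was Hspa1b with Hsph1 (r = 0.91, Spearman's rho = 0.91, permutation p = 1e-05, the smallest the resamples can give, adjusted p = 5e-05), while by rho it was Hsph1 with Hsp90aa1 (rho = 0.95). For Hspa1b with Hsph1, without the 2 mice farthest from the median of Hspa1b r was 0.86. Hspe1 was the least tied, with r from 0.38 to 0.70. Of the 4 chaperone pairs that missed the threshold, all 4 held Hspe1.

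Cirbp had a negative r with all 8 chaperones, from -0.82 with Hsp90aa1 to -0.43 with Hspe1, and 7 of the 8 pairs passed the same test. For Cirbp with Hsp90aa1, rho was -0.80 (permutation p = 2e-05 for r, adjusted p = 7.5e-05), and r was -0.75 without the 2 mice farthest from the Cirbp median. For Cirbp with Hsph1, r was -0.79 and rho -0.79 (permutation p = 2e-05, adjusted p = 7.5e-05), and r was -0.70 without the 2 farthest mice. Both relations were present within the groups: after subtraction of each group's mean, r was -0.86 and -0.80, and its sign was the same in 4 of 4 groups. These are values of the same libraries, so a fault of 1 library enters both genes of a pair.

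The r of Rbm3 with the 8 chaperones ran from -0.38 to 0.38, with 4 positive and 4 negative, and 0 of the 8 pairs passed. After subtraction of the group means 1 of them did, Rbm3 with Hspe1 (centred r = 0.5, adjusted p = 0.034 in the permutation test). Cirbp and Rbm3 correlated at r = 0.50 (permutation p = 0.022, adjusted p = 0.0319). By rho, at 0.43, the pair missed the threshold (permutation p = 0.0567, adjusted p = 0.0778), and r was 0.28 after subtraction of the group means, where the pair no longer passed. Of all 45 pairs, 32 passed by r and 30 by rho, and 36 passed after centring on the group means. Pairs of other genes were not tested, so these counts do not set the 45 pairs apart from them.

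**Figure D3:**
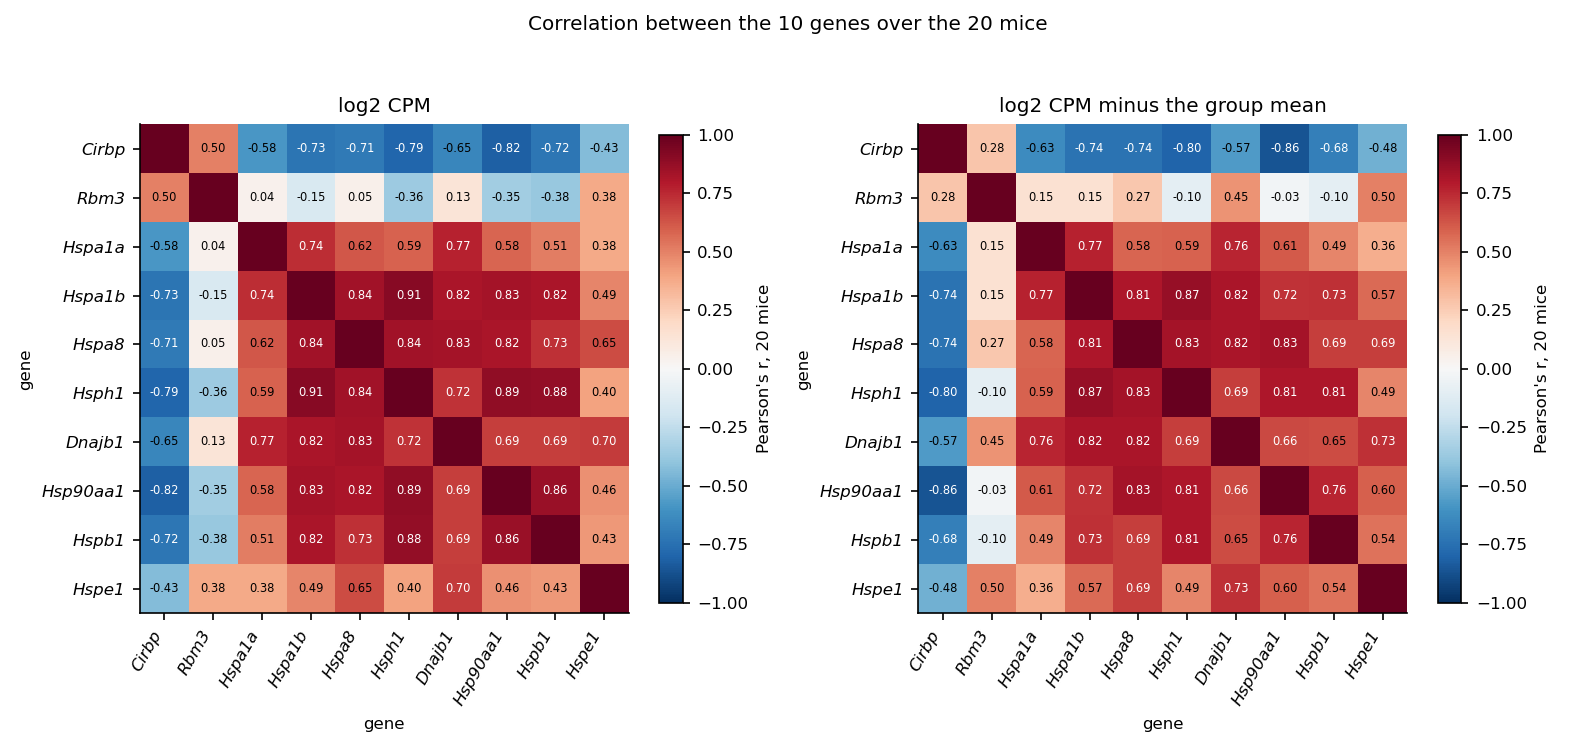
Pearson's r between each pair of the 10 genes over the 20 mice, on log2 CPM to the left and after subtraction of each group's mean to the right, from blue at -1 to red at 1. The block of 8 chaperones is red in both, the Cirbp row is blue against the chaperones with r down to -0.86, and the Rbm3 row is pale.

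**Figure D4:**
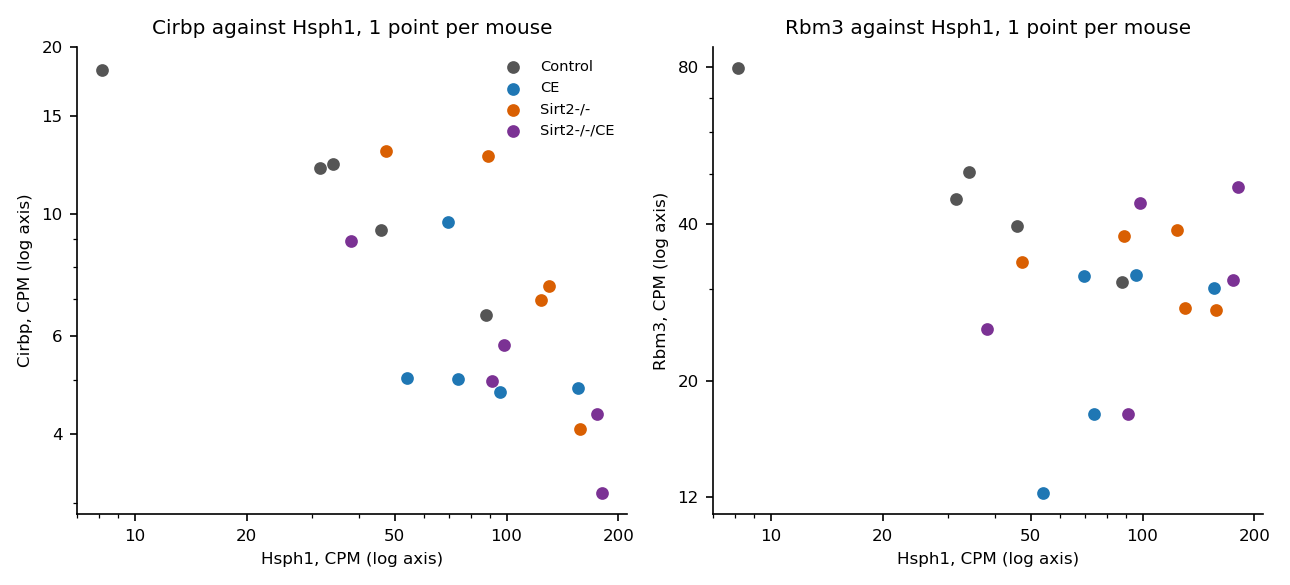
Cirbp (left) and Rbm3 (right) against Hsph1 in each of the 20 mice, in CPM on log axes, with groups in colour. Cirbp declines along Hsph1 (r = -0.79), Control mouse 3 stands at the low end of Hsph1, and the points of Rbm3 are more scattered (r = -0.36).

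Individual mice made the pattern visible. Control mouse 3 had the highest Cirbp (18.2 CPM) and the highest Rbm3 (79.7 CPM) of the 20 mice and was among the 3 lowest mice in 6 of the 8 chaperones. Within the Control group, mouse 4 had the lowest Cirbp (6.55 CPM) and Rbm3 (31 CPM) and the highest Hsph1, Hsp90aa1 and Hspb1. The lowest Cirbp of all, 3.13 CPM, was that of Sirt2-/-/CE mouse 16, which had the highest Hsph1, Hspa1b, Hspa8, Dnajb1, Hspb1 and Hspe1.

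Outside the 10 genes, those whose order over the 20 mice was most like Hsph1 were Gm15542 (rho = 0.95), Stip1 (rho = 0.946), the adaptor between Hsp70 and Hsp90, and Chordc1 (rho = 0.94), a cochaperone of Hsp90, out of 10395 genes compared. For Cirbp they were Acp6 (rho = 0.901), Elmo3 (rho = 0.887) and Tyw5 (rho = 0.865). For Rbm3 they were Phb2 (rho = 0.907), Hadh (rho = 0.899) and Galk1 (rho = 0.889). At the other end for Rbm3, and named after their values were seen, stood AU022252 (rho = -0.911), Clock (rho = -0.902), a core gene of the circadian clock, and Cul2 (rho = -0.892). These values describe the 20 libraries and carry no test.

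The wider chaperone network was read from lists drawn up by function. All 14 cochaperones were higher on average in CE and in Sirt2-/- mice than in the Control mice that both comparisons share, with median log2 differences of 0.14 and 0.3. None was called by edgeR or DESeq2, and limma voom called 1 in CE (Ahsa1) and 2 in Sirt2-/- (Stip1 and Ahsa1). In each comparison 3 of the 14 had an unadjusted p under 0.05. For this and the following lists, the shares over all genes tested were 10.7% in CE and 14.9% in Sirt2-/- at the unadjusted p, 1.2% and 3.89% called by DESeq2 and 3.46% and 5.8% called by limma voom. In CE mice those with the lowest p were Ahsa2 (0.58 ± 0.23) and Ahsa1 (0.54 ± 0.23), which stimulate the ATPase of Hsp90. In Sirt2-/- mice they were Stip1 (0.8 ± 0.28) and Chordc1 (0.75 ± 0.28). Bag3, an Hsp70 exchange factor and a classical Hsf1 target, differed by 0.01 ± 0.34 in CE and 0.53 ± 0.34 in Sirt2-/-.

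Of the 18 other cytosolic chaperones, 13 were higher in CE and 11 in Sirt2-/- mice and edgeR called none, with 3 and 6 of 18 at an unadjusted p under 0.05, all higher, beside 10.7% and 14.9% of all genes. DESeq2 called 1 in CE (Dnaja4) and 0 in Sirt2-/-, and limma voom called 2 and 4. The lowest p-values belonged to Dnaja4 (0.77 ± 0.22) and Hspa4l (0.95 ± 0.36) in CE mice, and to Hspa4 (0.39 ± 0.12) and Dnajb2 (0.57 ± 0.21) in Sirt2-/- mice. The 8 subunits of TRiC, the cytosolic chaperonin, had medians of 0.06 and 0.17, and the largest was Cct3 at 0.36 ± 0.2 in CE and 0.56 ± 0.2 in Sirt2-/- mice. Of these 8, edgeR and DESeq2 called 0 in each comparison, 0 and 2 had an unadjusted p under 0.05, and limma voom called 0 and 2. The 10 mitochondrial chaperones and proteases had medians of -0.04 and 0, and Hspd1, the partner of Hspe1 across their shared promoter, differed by -0.03 ± 0.15 and -0.02 ± 0.15. Of these 10, edgeR called 0 in each comparison, and Dnaja3, a mitochondrial J-domain protein, was the 1 with an unadjusted p under 0.05 in each (0.26 ± 0.09 and 0.28 ± 0.09) and the 1 called by DESeq2 and by limma voom.

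The messages of the heat shock factors were not called by edgeR or DESeq2. Hsf1, the master regulator of the heat shock genes, differed by 0.11 ± 0.16 in CE and 0.19 ± 0.16 in Sirt2-/- mice on the log2 scale. Hsf2 differed by 0.65 ± 0.2 in CE mice (unadjusted p = 0.00438, adjusted p = 0.241 in edgeR) and was called there by limma voom, and it differed by 0.32 ± 0.2 in Sirt2-/- mice. Hsf1 is regulated as a protein, which messenger RNA does not show.

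The chaperones of the endoplasmic reticulum were the 1 list with genes called by edgeR. In Sirt2-/- against Control edgeR called 5 of the 10, all higher, beside 0.89% of all genes tested. They were Pdia4 (1.13 ± 0.24, adjusted p = 0.0396), Sdf2l1 (1.8 ± 0.39, adjusted p = 0.0407), Hyou1 (1.6 ± 0.35, adjusted p = 0.0407), Hspa5 (1.25 ± 0.28, adjusted p = 0.0407) and Creld2 (2.25 ± 0.5, adjusted p = 0.0407). Hspa5 is BiP, the Hsp70 of that compartment, and it averaged 1387 CPM in Sirt2-/- and 581 CPM in Control mice. No call was left without the filter on low counts, in a fit of only the Control and Sirt2-/- groups with a clock score as covariate or without the 4 mice of low score. The number called also depended on single mice: leaving out any 1 of Control mice 1, 2, 3 or 5 or Sirt2-/- mice 11, 12, 14 or 15 left 0 called, while 7 were called without Control mouse 4 and 8 without Sirt2-/- mouse 13. The log2 fold changes themselves ran, with each mouse left out, from 1.02 to 1.3 for Pdia4, from 1.62 to 2.07 for Sdf2l1, from 1.38 to 1.83 for Hyou1 and from 1.12 to 1.48 for Hspa5. In CE against Control 9 of the 10 were higher at an unadjusted p under 0.05, beside 10.7% of all genes. There edgeR called 0 of the 10, DESeq2 3 and limma voom 6, beside 0.0064%, 1.2% and 3.46% of all genes. In the interaction 9 of the 10 were negative at an unadjusted p under 0.05, beside 8.34% of all genes, and edgeR, DESeq2 and limma voom called 0.

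**Figure D5:**
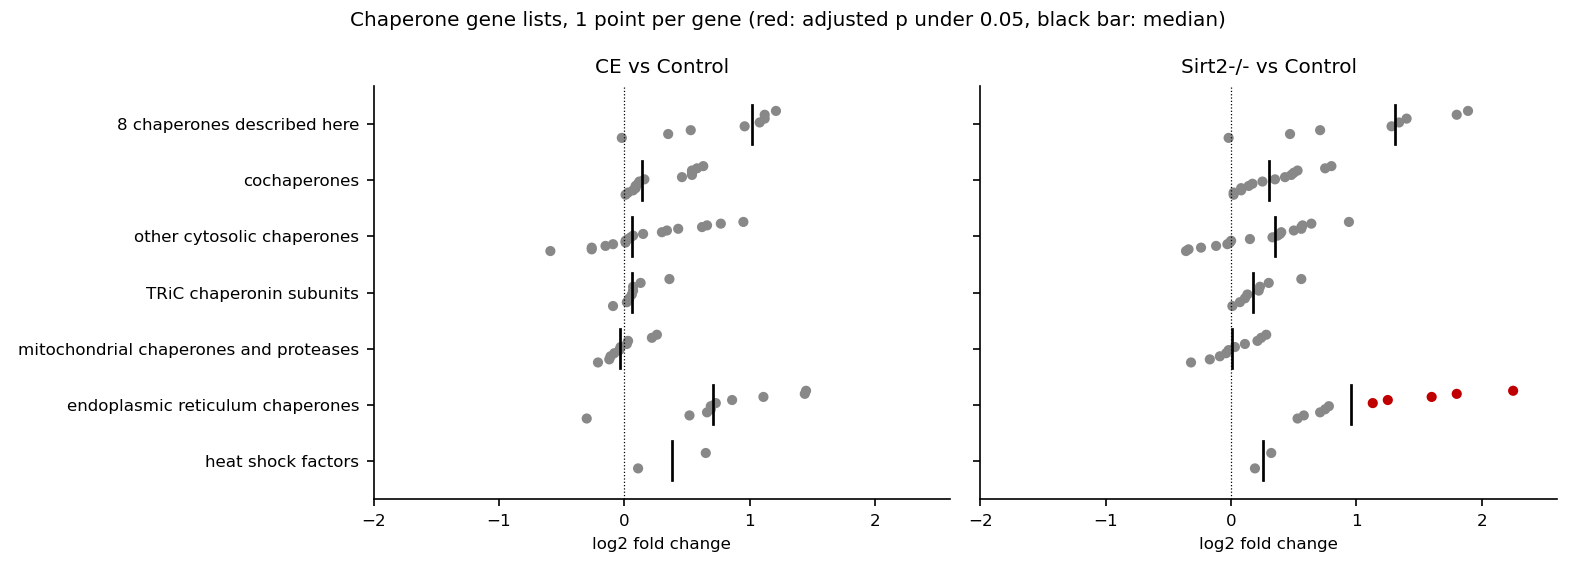
Log2 fold changes of the 8 chaperones and of 6 further lists in CE against Control (left) and Sirt2-/- against Control (right), with 1 point per gene, red points for an adjusted p under 0.05 and a black bar at the list's median. The 5 red points are endoplasmic reticulum chaperones in Sirt2-/- mice, and the mitochondrial list is centred near 0 in both.

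Immediate early genes and clock genes were read beside the 10 genes, and their part in the results was not tested beyond the covariate fits given at the end. The 10 immediate early genes, which respond within minutes to stimulation of a tissue, were lower in CE than in Control mice in 10 of 10 cases and in Sirt2-/- mice in 8 of 10, by medians of -1 and -0.78 on the log2 scale. None was called by edgeR, DESeq2 or limma voom in either comparison, and 1 and 2 of the 10 had an unadjusted p under 0.05, near the 10.7% and 14.9% of all genes. The ones with the lowest p were Btg2 (-1.83 ± 0.72 and -2.45 ± 0.74) and Dusp1 (-1.31 ± 0.64 and -1.47 ± 0.65). Of the 12 clock genes none was called in any of the 5 comparisons by edgeR, and 3 had an unadjusted p under 0.05 in each comparison with Control. DESeq2 called Arntl in both, and limma voom called Clock in CE against Control. The named clock genes were Arntl at 3.06 ± 0.88 in CE and 3.25 ± 0.89 in Sirt2-/- mice (adjusted p = 0.202 and 0.0769 in edgeR), with Clock at 1.31 ± 0.43 in CE mice and Npas2 at 5.11 ± 1.98 in Sirt2-/- mice.

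A clock score was taken for each mouse as the centred log2 CPM of Ciart, Dbp, Nr1d2, Per3 and Tef, averaged, less that of Arntl, Clock and Npas2. It ran from 1.33 to 3.36 in Control mice. It ran from -4.52 to 2.42 in CE, from -6.48 to 2.17 in Sirt2-/- and from -4.69 to 0.87 in Sirt2-/-/CE mice. The group medians were 3.13 in Control, 0.38 in CE, 0.58 in Sirt2-/- and -0.1 in Sirt2-/-/CE mice. Mice 9 (-4.52), 14 (-5.72), 15 (-6.48) and 19 (-4.69) stood far below the others, which were at -0.81 or above. Because the scores fell into these separate clusters, a choice made after they were seen, relations were taken over the 16 other mice alone.

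Over all 20 mice no gene of the 10 passed a permutation test against the score by r, by rho or after centring on group means. There r was 0.20 for Cirbp (adjusted permutation p = 0.598), 0.51 for Rbm3 (0.232), -0.30 for Hsph1 (0.489) and -0.38 for Hsp90aa1 (0.336). The centred r was -0.09 for Cirbp, 0.42 for Rbm3, 0.09 for Hsph1 and 0.02 for Hsp90aa1. Over the 16 mice Cirbp followed the clock score closely and most chaperones ran against it. For Cirbp r was 0.89 and rho 0.81 (permutation p = 1e-05 for r, the smallest the resamples can give, adjusted over the 10 genes 0.0001), with r = 0.85 without the 2 farthest mice. For Rbm3 r was 0.63 and rho 0.57 (permutation p = 0.00753 for r, adjusted 0.0125), with r = 0.45 without the 2 farthest mice. Hsph1 (r = -0.77, rho = -0.76) and Hsp90aa1 (r = -0.76, rho = -0.73) were the most negative, with adjusted permutation p-values of 0.00095 and 0.00323 for r and with r = -0.71 and -0.64 without the 2 farthest mice. Of the 10 genes 8 passed by r and 8 by rho, all but Hspa1a and Hspe1. The test was run on these 10 genes only, so the count does not set them apart from other genes. The Control mice hold the 4 highest scores, so part of each relation is the difference between groups. After centring on group means Cirbp alone passed (r = 0.76, adjusted permutation p = 0.0062), and r was 0.53 for Rbm3, -0.53 for Hsph1 and -0.56 for Hsp90aa1.

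With the score as a covariate over all 20 mice, the log2 fold change of Sirt2-/- against Control was 1.36 ± 0.42 for Hsp90aa1 and 2.47 ± 0.71 for Hspa1b, and -0.21 ± 0.35 for Rbm3, and no gene of the 10 was called. Hspa1a was then at 2.74 and Dnajb1 at 0.82. The same covariate for CE against Control, a fit chosen after the data were seen, gave -1.03 ± 0.37 for Cirbp, -0.79 ± 0.3 for Rbm3, 1.09 ± 0.41 for Hsp90aa1 and 1.76 ± 0.9 for Hspa1a, and called none of the 10. Over the 16 mice, also chosen after the data were seen, the score as a covariate took the median of the 8 chaperones from 1.04 to 0.42 in CE against Control and from 1.32 to 0.86 in Sirt2-/- against Control. There Cirbp was at 0 ± 0.35 and 0.02 ± 0.3 in these comparisons, Rbm3 at -0.19 ± 0.39 and -0.16 ± 0.34, and Hsp90aa1 at 0.27 ± 0.4 and 0.93 ± 0.38. Without the covariate the 16 mice gave -0.93 ± 0.35 and -0.54 ± 0.38 for Cirbp and -0.8 ± 0.3 and -0.55 ± 0.33 for Rbm3. No gene of the 10 was called by edgeR in these fits, in which 3 to 5 mice per group remained.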

How the data were processed

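Liver RNA of 20 mice was enriched on oligo(dT) beads, copied from random hexamers and sequenced on an Illumina NovaSeq instrument. The authors deposited whole-number read counts per gene, without normalization, and FPKM values scaled to gene length and depth. The aligner, the counting tool and its use of strand are not given in the sources used here, and the submitters' processing notes name the mm10 build. Of the lines of the table, 9 named no gene and were left out, and 0 columns were unmapped. No batch is labelled, and replicates were counted as separate mice.

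Counts were tested with edgeR 4.0.16 in R 4.3.3: TMM scaling, filterByExpr (minimum count 10, minimum total 15), 1 quasi-likelihood fit of all 20 mice by group, two-sided, with Benjamini-Hochberg adjustment over the 15616 genes tested and a call at an adjusted p under 0.05. The common dispersion was 0.147 and TMM factors ran from 0.87 to 1.15. The SE of a log2 fold change is its size divided by the square root of F. No 2 libraries agreed within sampling noise (lowest median chi-square 4.43 against 0.455). Log2 CPM used a prior count of 2. The scripts were tested on simulated data.

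Alternatives were DESeq2 1.42.0, scaling by library size alone, no filter, limma 3.58.1 voom with sample quality weights, a fit of only the 2 groups compared, the clock score as covariate (in the 2 comparisons with Control, also without 4 mice of low score, added after the data were seen) and removal of each mouse. Correlations used NumPy 2.4.6 and SciPy 1.17.1. Near-identical genes were searched with BLAST 2.17.0 in GENCODE vM21 transcripts. In that annotation Rbm3 shares 94 exon bases with the antisense gene Rbm3os, Hspe1 112 with Hspd1 and Hspa1a 564 with Gm20481, each on the other strand, and Hspa8 holds small nucleolar RNA genes on its own strand. Sequences are from RefSeq promoters on GRCm38.p6.

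The 10 genes and the lists were chosen with earlier results of these data known. Genes were named by rule: the 10 genes, Sirt2, Hspd1, Hspa5, Hsf1 and Bag3, the called genes of each list (at most 3 per direction) or else the 2 with the lowest p, and the 3 genes most like Cirbp, Rbm3 and Hsph1. Creld2 and the genes ranked opposite to Rbm3 were named after their values were seen.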

Additional observations from a re-analysis of the deposited data

Results flagged for a closer look

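In the CE group, the Cirbp level of mouse 8 (9.67 CPM) stood apart from the other 4 mice, which lay between 4.76 and 5.04 CPM, by Dixon's test for 5 samples at the 95% level on log2 CPM. It was the 1 mouse to stand apart among the 40 gene and group combinations of the 10 genes, of which chance alone flags about 1 in 20. Without it, the log2 fold change of Cirbp in CE against Control was -1.25.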

How the results depend on the processing

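The number of the 10 genes called in Sirt2-/- against Control was 0 in edgeR, 1 in DESeq2, 1 with library size scaling and 4 in limma voom, and it ran from 0 to 1 with each mouse left out. In CE against Control it was 4 in limma voom and 0 in every other setting. The number of endoplasmic reticulum chaperones called in Sirt2-/- against Control was 5 in edgeR, 8 in DESeq2, 8 with library size scaling, 9 in limma voom and 0 with no filter, with only the 2 groups, with the clock score or without the 4 mice of low score, and 0 to 8 with each mouse left out. With the clock score their log2 fold changes were 1.09 for Pdia4, 1.68 for Sdf2l1, 1.6 for Hyou1 and 1.19 for Hspa5. All genes called in that comparison numbered 139 in edgeR, 607 in DESeq2, 419 with library size scaling, 35 with no filter, 906 in limma voom, 29 with only the 2 groups and 0 with the clock score, and in CE against Control 1 in edgeR, 188 in DESeq2 and 540 in limma voom.

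Hspe1 in Sirt2-/- against Control was 0.12 with library size scaling, 0.14 in limma voom and 0.16 with the clock score, 0.11 without the 4 mice of low score, and -0.10 to 0.05 with each mouse left out. In CE against Control it was 0.02 in limma voom, 0.11 with the clock score, 0.03 without the 4 mice of low score and -0.12 to 0.05 with each mouse left out. Rbm3 in Sirt2-/-/CE against Sirt2-/- ran from -0.17 to 0.15 with each mouse left out. In limma voom the median of the 10 genes and of the 8 chaperones was -0.53 and -0.63 in Sirt2-/-/CE against Sirt2-/- and -0.11 and -0.16 in Sirt2-/-/CE against CE, where Hspa8 was -0.06. With each mouse left out the first 2 ran from -0.20 to 0.32 and from -0.19 to 0.37. In the fit of the 16 other mice with the clock score, Cirbp was 0.02 in Sirt2-/- against Control and Hspa8 -0.07 in CE against Control. Beyond that fit the other 9 genes kept their sign in both comparisons with Control. Scaling by library size alone moved the median of all genes in Sirt2-/- against Control from 0.017 to 0.158. The causes were not tested. No paired analysis was possible because the groups share no replicate number. Over the 10 genes and 4 groups, the SD of log2 CPM between mice ran from 0.17 to 2.22.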

Other observations

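Hspa1a and Hspa1b did not keep a fixed ratio. Hspa1a held 15.2% to 34.1% of their summed counts in the Control mice, 4.5% to 20.5% in CE, 1.8% to 22.8% in Sirt2-/- and 4.5% to 21.0% in Sirt2-/-/CE mice. Both genes have near-identical transcripts, and how reads that match both were assigned is not given.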
